A study of Mus musculus with 3 samples.

Results

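The genes described here are 36 genes of the hepatocyte's secretory and metabolic work, chosen by name from 5 functions, namely 10 apolipoproteins, 6 plasma carriers, 6 urea cycle genes, 6 genes of glucose metabolism and 8 genes of amino acid breakdown, among 36865 gene names on the array. A total of 35 were found by the array's own gene name, and 1, transferrin (Tf), through its synonym, as Trf. Their RNA was measured in Hepa1c1c7 cells, a mouse hepatoma line, transfected with a Cd74 vector, a Tmem54 vector or an empty vector. The Cd74 and Tmem54 vectors carry the gene of that name, and no further allele, agent, dose or time is given in the labels. Each vector has 1 single-colour array, so no value has a replicate, nothing was tested, and whether cells came from 1 clone or a pool is not stated in the sources used here.

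The hepatocyte makes most plasma proteins. Apolipoproteins wrap and direct lipid particles, carriers move iron, retinol and hormones through blood, the urea cycle turns ammonia into urea, and gluconeogenesis and glycogen breakdown release glucose. Amino acid breakdown feeds these routes, and the kynurenine route, which degrades tryptophan, runs through Tdo2, Kynu and Haao. Hepatoma lines often keep part of this programme and lose the rest.

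Most of these genes gave no signal above background. Of the 36 genes, 17 (47.2%) were detected on at least 1 array, that is, a probe carried the scanner software's flag for a signal well above background. The share was 58.4% of all gene names and 69.7% of protein-coding genes. The other 19 were not detected with any vector. Their 24 probes had signals between 2.64 and 13.9, and values below detection have no order, since the software puts a surrogate in place of signals it cannot tell from background. A total of 15 genes were detected on all 3 arrays and 2 on 1 array only, Kynu on the Cd74 array and G6pc on the Empty array. The name hepatocyte genes thus stands for what these genes do in liver. Of 11 hepatocyte markers 4 were undetected, namely the transcription factor genes Hnf4a and Cebpa and, from the set itself, Ttr and Apoa1. The arrays had between 33049 and 33896 spots well above background and lay on 1 slide. The transfected genes matched the labels. Cd74 had a signal of 10855 on the Cd74 array, 22.4 on the Tmem54 array and 26.8 on the Empty array, and Tmem54 was detected on the Tmem54 array alone.

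**Figure D1:**
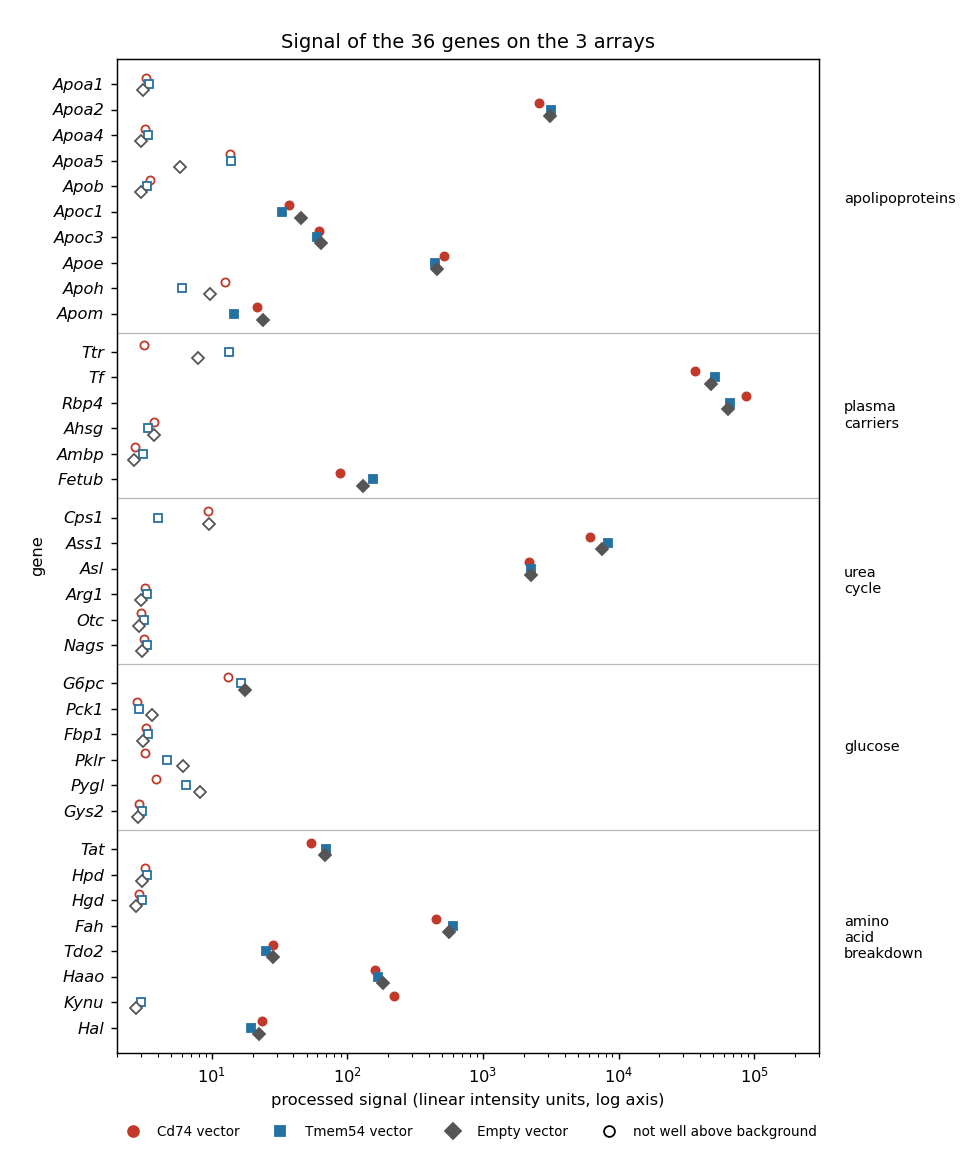
Processed signal (horizontal log axis, linear intensity units) of each of the 36 genes on the Cd74, Tmem54 and Empty arrays, with 1 point per array and open points where the probe was not well above background. Of the 36 genes, 19 have open points throughout, and Kynu is filled on the Cd74 array only.

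The sequences of 2 probes are shown because they mark a limit of the measurement, namely genes whose probes disagree. Of the 8 detected genes with more than 1 probe, 4 were detected by 1 of them only, namely Apoc3, Haao, Kynu and Hal. The Kynu probe lies at chr2:43459748-43459807 (mm9, + strand), is assigned to transcript variant 2 by the array file and was detected on the Cd74 array. The Apoc3 probe lies at chr9:46041353-46041412 (mm9, - strand), is assigned to 4 Apoc3 transcripts and was detected on no array. Both are written 5′ to 3′ as on the array, and capitals mark the longest run shared with any other probe of the array. That run is 13 bases for Kynu, shared with 1 probe for Scfd2 that was not detected, and 16 bases for Apoc3, shared on the opposite strand with 1 intergenic probe that was detected. Exon and UTR annotation was not used here.
Kynu: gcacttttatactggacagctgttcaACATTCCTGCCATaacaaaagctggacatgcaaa
Apoc3: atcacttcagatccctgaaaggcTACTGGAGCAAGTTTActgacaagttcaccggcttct

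With the Cd74 vector, the set differed little from the empty vector apart from 1 gene. Of 17 genes compared with the empty vector, 1, Kynu, was higher by 2-fold or more and 0 were lower by as much. Over all 21223 genes with a difference, 2.51% passed 2-fold, 1.08% as higher and 1.43% as lower. The median log2 difference of the 17 genes was -0.11, against -0.001 for all genes compared, with 7 above 0 and 10 below. With the Tmem54 vector 0 of 16 genes passed 2-fold against the empty vector, beside 1.51% of 21110 genes, 0.644% as higher and 0.862% as lower, and the median was -0.03. Between the Cd74 and Tmem54 arrays 1 of 16 was higher with Cd74 by 2-fold or more, again Kynu, and 0 were lower, beside 3.29% of 20919 genes, 1.61% as higher and 1.68% as lower. The median there was 0.07, against 0.019 for all genes. The comparisons with the empty vector share its 1 array.

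Differences between arrays are log2 differences of scaled signals, and the error given after ± is the scanner software's model error of the processed signal, which covers noise within the arrays and not between cultures. For bright probes it comes to 0.20, which follows from a preset multiplicative term of the software and not from a spread measured here. Among the 15 genes measured on all 3 arrays, the Cd74 differences from Empty ran between -0.51 and 0.50, and 2 of them, Rbp4 and Fetub, were more than 2 model errors from 0. The Tmem54 differences from Empty ran between -0.71 and 0.23, with 0 beyond 2 model errors. In the comparison of Cd74 with Tmem54, Rbp4 and Fetub again were, and Tf, at -0.41 ± 0.20, lay at that limit within rounding. No replicate culture gives a spread to set these against.

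**Figure D2:**
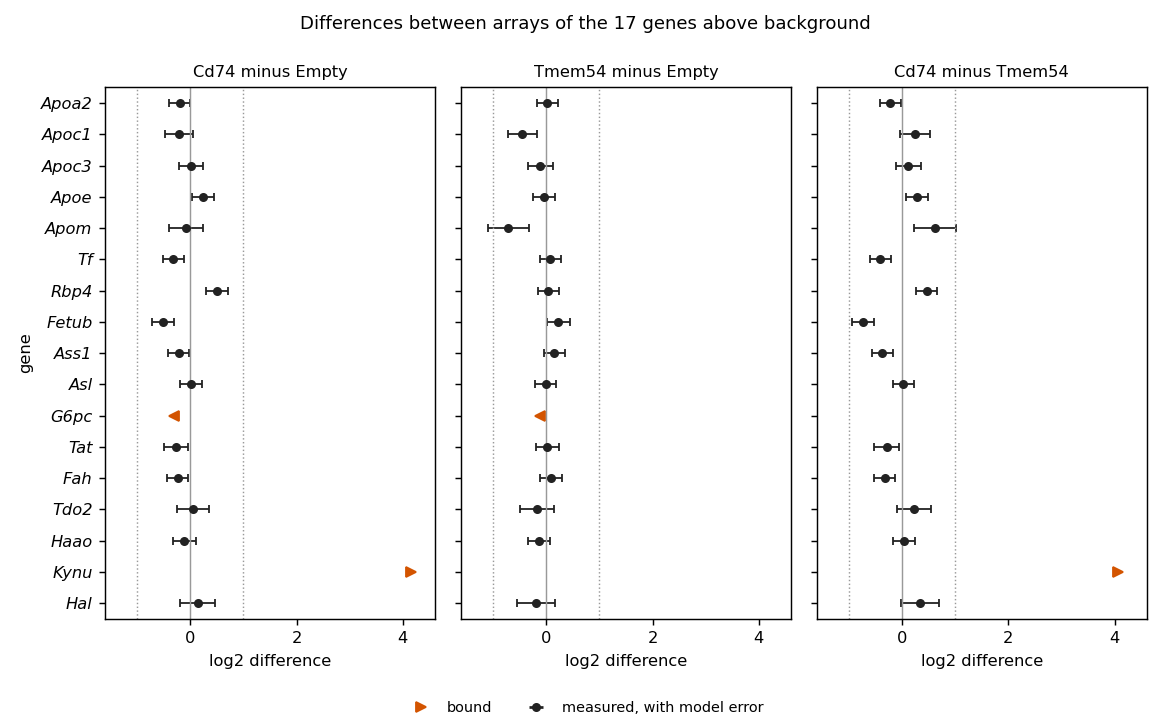
Log2 differences (horizontal axis) of the 17 detected genes for Cd74 minus Empty, Tmem54 minus Empty and Cd74 minus Tmem54. Circles are measured differences with the model error, triangles are bounds, and dotted lines mark 2-fold. Kynu is the 1 gene beyond a dotted line, at bounds of 4.15 and 4.07.

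Of the apolipoproteins, 5 of 10 were detected. Apoa1, the main protein of high-density lipoprotein, Apob, which forms the body of very-low-density lipoprotein, Apoa4 and Apoa5, a regulator of plasma triglyceride, and Apoh, which binds phospholipid, were not. Apoa2, a further protein of high-density lipoprotein, had a signal of 2604 on the Cd74 array, 3196 on the Tmem54 array and 3129 on the Empty array. Its Cd74 difference from Empty was -0.20 ± 0.20, the size of the model error. Its dimmer probe had 727 with Cd74, 1110 with Tmem54 and 849 with the empty vector and placed Tmem54 0.37 above Empty, where the brighter probe gave 0.02.

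Apoe, the ligand by which lipoprotein remnants are taken up, had signals of 514 with Cd74, 445 with Tmem54 and 455 with the empty vector. The Cd74 difference from Empty was 0.24 ± 0.20, and the second Apoe probe gave 0.55. Both probes were thus highest on the Cd74 array. Apoc1, an inhibitor of lipoprotein uptake, was dim, at 37.2 with Cd74, 33.2 with Tmem54 and 45.1 with the empty vector, and lowest on the Tmem54 array at -0.45 ± 0.27 from Empty. Apom, a carrier of sphingosine 1-phosphate, had 21.5 with Cd74, 14.7 with Tmem54 and 23.8 with the empty vector. Its Tmem54 difference from Empty of -0.71 ± 0.38 is the lowest of the 15 measured genes in that comparison, from a signal close to the lowest one called well above background on that array, 13.9. Apoc3, an inhibitor of triglyceride clearance, had 61.8 with Cd74, 59.9 with Tmem54 and 64 with the empty vector on its detected probe, assigned to transcript variant 2, with differences from Empty of 0.01 and -0.11. The probe for 4 Apoc3 transcripts printed above, variant 2 among them, was dark on every array, so the detected signal comes from 1 of 3 probes. The median difference of the 5 apolipoproteins was -0.08 for Cd74 and -0.11 for Tmem54 from Empty, and 0.24 for Cd74 from Tmem54.

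Detected probes were also counted in gene clusters, each with few probes. On each array between 55.7% and 57.2% of spots other than controls were well above background. A difference between clusters was not tested. The Apoa1, Apoc3, Apoa4 and Apoa5 genes lie together at chr9:46037921-46079490 (mm9), where their 7 probes span 41.6 kb, and 1 of the 7 probes was detected, that of Apoc3. The Apoe cluster at chr7:20257027-20281791 (mm9, 24.8 kb) holds Apoe and Apoc1 with Apoc4 and Apoc2, which belong to the wider lipoprotein list, and 5 of its 6 probes were detected. Within it, Apoc4 had 22.1 with Cd74, 49.1 with Tmem54 and 47.8 with the empty vector, a Cd74 difference from Empty of -1.05 ± 0.31. Apoc2 had 21 with Cd74, 29.5 with Tmem54 and 32.3 with the empty vector, a Cd74 difference from Empty of -0.56 ± 0.31. Both Cd74 signals are not far above the lowest one called well above background on that array, 13.5. Apoc2 was detected by 1 of its 2 probes. At these dim signals the Cd74 array was below Empty for Apoc4 and Apoc2. It was above Empty for Apoe, at 0.24 ± 0.20, little more than the model error. Apoc1, at -0.21 ± 0.26, was within the model error. The fetuin genes Ahsg and Fetub, within 40.4 kb on chromosome 16, also split, with Fetub detected and Ahsg not.

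Of the plasma carriers, 3 of 6 were detected. Ttr, which carries thyroid hormone and the retinol-binding protein, Ahsg, an inhibitor of mineral deposition, and Ambp, the precursor of alpha-1-microglobulin and bikunin, were not detected. Rbp4, the carrier of retinol, read by 1 probe at chr19:38191129-38191188 (mm9), had signals of 86278 with Cd74, 66024 with Tmem54 and 63882 with the empty vector. Rbp4 was highest on the Cd74 array, at 0.50 ± 0.20 or 1.41-fold from Empty, and the Tmem54 and Empty arrays differed by 0.04 ± 0.20. Transferrin, the iron carrier (chr9:103111207-103111266), went the other way, with signals of 36431 with Cd74, 50992 with Tmem54 and 47713 with the empty vector. Its Cd74 differences were -0.32 ± 0.20 from Empty and -0.41 ± 0.20 from Tmem54, and the second probe gave -0.37 and -0.54. Fetub, a fetuin that inhibits the protease ovastacin (chr16:22939736-22939795), had 88.4 with Cd74, 155 with Tmem54 and 131 with the empty vector. Fetub was lowest on the Cd74 array, at -0.51 ± 0.21 from Empty and -0.73 ± 0.21 from Tmem54, the lowest Cd74 difference among the 15 measured genes in each comparison. The 3 carriers thus had differences of both signs, and their median Cd74 difference from Empty was -0.32.

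Rbp4 and Fetub, which differed in opposite directions on the Cd74 array, both hold the word TATAAA before their start and are shown for that reason. Among the 27 genes of the set with a RefSeq promoter window (GRCm38.p6, across the annotated start), 12 of 34 windows (35.3%) held TATAAA on either strand, against 13.6% of all 32851 windows. The count was 7 of 17 windows of detected genes and 5 of 17 of undetected ones. Besides Rbp4 and Fetub, the genes with the word were Apoa2, Apoa5, Apob, Apoe, G6pc, Hal, Hgd, Pklr and Tdo2. A link of the word with the differences between arrays was not tested. The HNF4-type word CAAAGTNCA was in 1 window, that of Apoa4 (2.94%, against 1.41% of all windows). The last 100 bases before the start are given for both carriers with TATAAA in capitals. They lie at chr19:38124812-38124911 (- strand) for Rbp4 and chr16:22918282-22918381 (+ strand) for Fetub. A match is a run of letters and no evidence of binding. The word begins 28 bases before the start in Rbp4 and 31 in Fetub.
Rbp4: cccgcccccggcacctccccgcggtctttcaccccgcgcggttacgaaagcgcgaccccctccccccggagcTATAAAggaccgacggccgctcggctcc
Fetub: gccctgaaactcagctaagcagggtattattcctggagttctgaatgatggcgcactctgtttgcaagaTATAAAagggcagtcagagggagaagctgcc

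Of the urea cycle, the argininosuccinate steps were detected and the other 4 genes were not. Cps1, which makes carbamoyl phosphate, Otc, which makes citrulline, Arg1, which releases urea, and Nags, which makes the activator of Cps1, were at background on all 3 arrays. Ass1, argininosuccinate synthase (chr2:31376068-31376127), had signals of 6115 with Cd74, 8340 with Tmem54 and 7476 with the empty vector. Its Cd74 difference was -0.22 ± 0.20 from Empty and -0.37 ± 0.20 from Tmem54, so the Cd74 array was the lowest of the 3. Asl, argininosuccinate lyase, had 2166 with Cd74, 2251 with Tmem54 and 2253 with the empty vector, and its differences from Empty were 0.01 and -0.01. A far dimmer Asl probe, for an Ensembl transcript, gave -0.44 with Cd74 and -0.29 with Tmem54 at signals of 39.3 and 46, against 55.6 with the empty vector.

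In glucose metabolism, 1 of 6 genes was detected. Pck1 and Fbp1 of gluconeogenesis, the liver pyruvate kinase gene Pklr, the liver glycogen phosphorylase gene Pygl and the liver glycogen synthase gene Gys2 were not. G6pc, the glucose-6-phosphatase that releases free glucose, had 13.2 with Cd74, 16.3 with Tmem54 and 17.5 with the empty vector and was well above background on the Empty array only. As nominal bounds it was at least 1.24-fold lower with Cd74 and at least 1.08-fold lower with Tmem54, or -0.31 and -0.11 on the log2 scale. The lowest flagged signals lay between 13.1 and 13.9, but the 16.3 with Tmem54 was not flagged, so flags are uneven at such signals. Model errors there are larger than both bounds, such as 0.41 for Hrg of the wider plasma list, at 20.2 with Cd74 and 16.9 with the empty vector. G6pc thus has no firm order between the arrays. Genes of the wider glucose and glycogen list were detected more completely, at 27 of 33. They include the related genes G6pc3, with signals of 7613 with Cd74, 9591 with Tmem54 and 9374 with the empty vector, the mitochondrial Pck2, with 1441 with Cd74, 1913 with Tmem54 and 1716 with the empty vector, and the muscle-type glycogen synthase gene Gys1, with 1360 with Cd74, 1367 with Tmem54 and 1259 with the empty vector. Slc2a2 and Gckr of that list were not detected. None of its genes was 2-fold different with Cd74, and 1, the glycogen-targeting phosphatase subunit gene Ppp1r3c, had a bound of at least 2-fold higher with Tmem54, from a signal of 26.5.

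**Figure D3:**
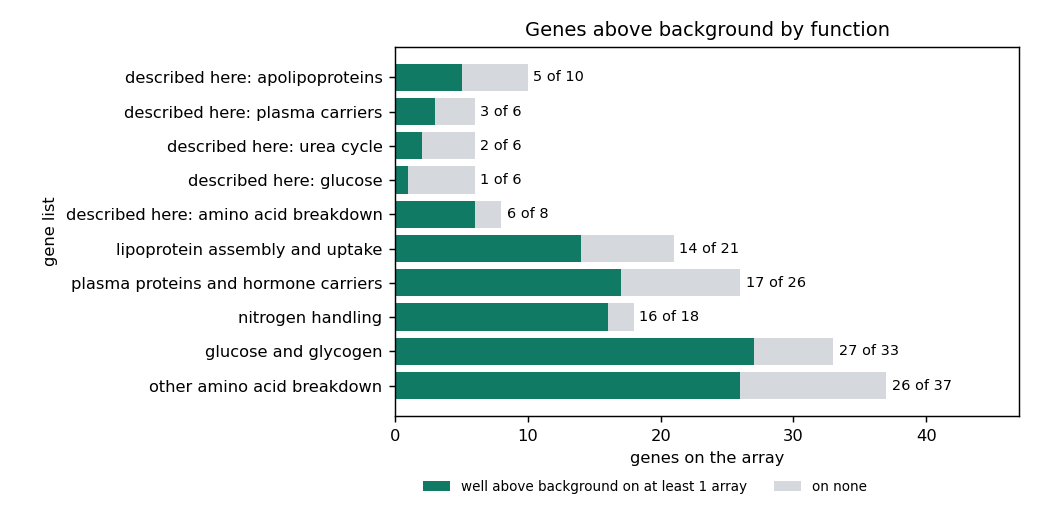
Number of genes on the array (horizontal axis) detected on 1 or more arrays (dark) or on none (light), for the 5 functions described here and 5 wider lists. Glucose genes of the set had 1 of 6 detected, and the wider glucose and glycogen list 27 of 33.

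Of the amino acid breakdown genes 6 of 8 were detected, near the share of protein-coding genes on the array, 69.7%. Of these, 5 were detected on all 3 arrays and Kynu on 1. Hpd and Hgd, the successive dioxygenases of tyrosine breakdown, were not detected, while Tat, which opens that route, and Fah, which closes it, were. Tat had signals of 53.9 with Cd74, 69.5 with Tmem54 and 67.9 with the empty vector, a Cd74 difference from Empty of -0.27 ± 0.23. Fah had 450 with Cd74, 598 with Tmem54 and 558 with the empty vector, a Cd74 difference of -0.24 ± 0.20. Both were lowest on the Cd74 array by little more than the model error. Hal, the first enzyme of histidine breakdown, had 23.3 with Cd74, 19.6 with Tmem54 and 22.1 with the empty vector, all within the model error of each other.

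Kynu, kynureninase, was the 1 gene past 2-fold. Its detected probe had a signal of 222 with Cd74, against 3.02 with Tmem54 and 2.78 with the empty vector. The Cd74 array stands alone, and the others were not well above background. The differences are bounds of at least 17.7-fold over Empty and at least 16.8-fold over Tmem54, or 4.15 and 4.07 on the log2 scale. With normexp background correction the bounds were 2.17 and 2.18 on that scale, so their size depends on the background treatment. Its other probes, one assigned to transcript variant 1 and lying further downstream and one for an Ensembl transcript, were not detected on any array, at signals of 2.77 and 3.22 with Cd74. The Kynu call therefore rests on 1 probe of 3 and 1 spot of 1 array. Of the 230 genes past 2-fold as higher with Cd74 than with Empty, 137 were bounds of this kind, and 3 bounds were as large as that of Kynu or larger, Kynu included.

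**Figure D4:**
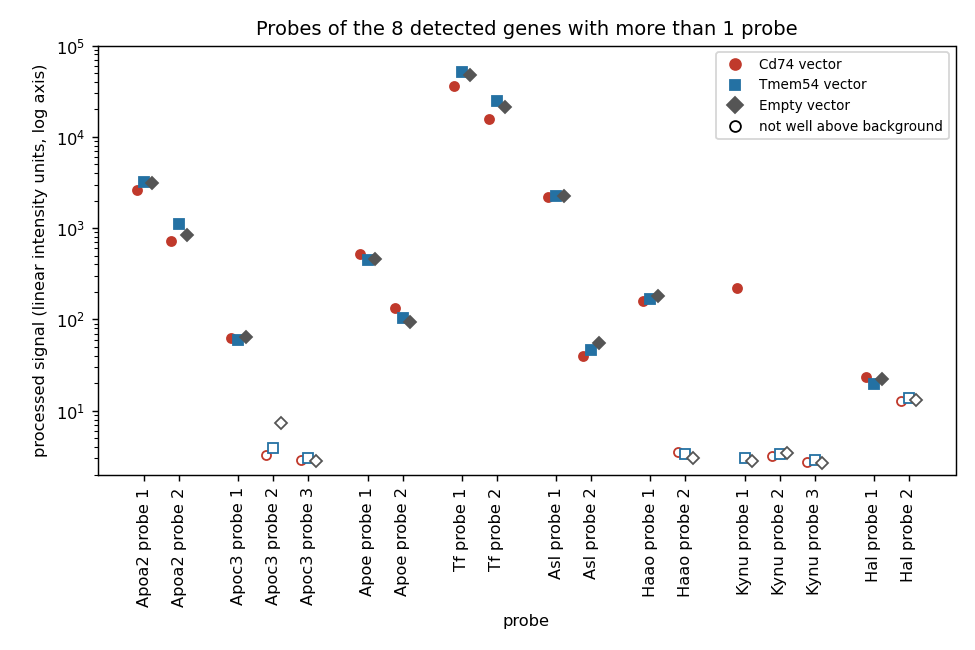
Processed signal (vertical log axis, linear intensity units) of every probe of the 8 detected genes read by more than 1 probe, on the Cd74, Tmem54 and Empty arrays. Open points were not well above background. Probe 1 of Kynu is filled on the Cd74 array alone, and the Kynu and Apoc3 probes 2 and 3 are open throughout.

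The other kynurenine enzymes of the set were near their Empty levels on the Cd74 array. Tdo2, the hepatic dioxygenase that opens the route, had 28.1 with Cd74, 25.3 with Tmem54 and 28.3 with the empty vector, and Haao, which acts after Kynu, had 161 with Cd74, 167 with Tmem54 and 182 with the empty vector. Their differences from Empty lay between -0.18 and 0.05, within the model error. Outside the set, Ido2, a related dioxygenase, had 73 with Cd74, 18.2 with Tmem54 and 11.6 with the empty vector, where it was not well above background. That is a bound of at least 5.83-fold over Empty and a measured difference of 2.08 ± 0.33 from Tmem54. The dimmer Ido2 probe had 15.6 with Cd74, 14.6 with Tmem54, not flagged, and 14.9 with the empty vector, and gave 0.13 for Cd74 from Empty. These signals are close to the lowest flagged ones, so that probe can hardly show a difference, and the Ido2 values rest on 1 probe. Kmo and Afmid, further enzymes of the route, differed from Empty by 0.11 and -0.26 with Cd74.

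The wider lists were counted in the same way. With Cd74 against Empty the counts past 2-fold as higher and as lower were 0 and 1 of 14 compared for lipoprotein assembly and uptake (Apoc4), 0 and 0 of 17 for plasma proteins and hormone carriers, 0 and 0 of 16 for nitrogen handling, 0 and 0 of 26 for glucose and glycogen, and 1 and 0 of 26 for the other amino acid genes (Ido2). Over all genes 2.51% passed 2-fold in that comparison, so these counts do not set the lists apart. With Tmem54 against Empty 1 of 17 plasma protein genes was 2-fold lower, the antiplasmin gene Serpinf2, beside 0.862% of all genes. Serpinf2 had 54.1 with Cd74, 14.5 with Tmem54 and 29 with the empty vector. Its Tmem54 difference from Empty was -1.01 ± 0.37, barely past 2-fold, and its Cd74 difference from Tmem54 was 1.98 ± 0.35. Both use a Tmem54 signal close to the lowest one called well above background on that array, 13.9. Albumin (Alb) had 2993 with Cd74, 10261 with Tmem54 and 5727 with the empty vector. Its difference from Empty was -0.87 ± 0.20 with Cd74 and 0.83 ± 0.20 with Tmem54, and its Cd74 difference from Tmem54 was -1.70 ± 0.20. In that last comparison 10 plasma protein genes lay above 0 and 6 below, with a median of 0.13. Some markers used for other cell types were also detected. Of 9 fibroblast and stellate markers 7 were detected, Lrat and Thy1 not, with summed signals of 91586 with Cd74, 81829 with Tmem54 and 90385 with the empty vector. Most of that sum is Dcn, at 75618 with Cd74, 57024 with Tmem54 and 67724 with the empty vector. Of the 7 genes 6 lay below Empty with Cd74 and 5 above it with Tmem54, with medians of -0.25 and 0.20. Over all genes 10634 of 21223 lay below Empty with Cd74 and 10097 of 21110 above it with Tmem54. Of the 6, Col1a2 and Des were within the model error, at -0.02 each. Between Cd74 and Tmem54, 2 of the 7, Col1a1 and Col3a1, were 2-fold lower with Cd74, at -1.08 each, beside 1.68% of all genes. Col1a1 had 4417 with Cd74 and 9923 with Tmem54. Col3a1 was dim, at 43.2 with Cd74 and 96.5 with Tmem54, and was detected by 1 of its 3 probes. Of 7 macrophage markers 5 were detected, Adgre1 and Clec4f not, with sums of 8750 with Cd74, 9568 with Tmem54 and 9704 with the empty vector and a median Cd74 difference from Empty of -0.20. Of 6 cholangiocyte markers 5 were detected, Epcam not, with sums of 33806 with Cd74, 43445 with Tmem54 and 39640 with the empty vector and a median of -0.12. Of 5 endothelial markers 2 were detected, with Cdh5, Kdr and Tek not, at sums of 106 with Cd74, 125 with Tmem54 and 137 with the empty vector and a median of -0.37. The part of these markers in the results was not tested.

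**Figure D5:**
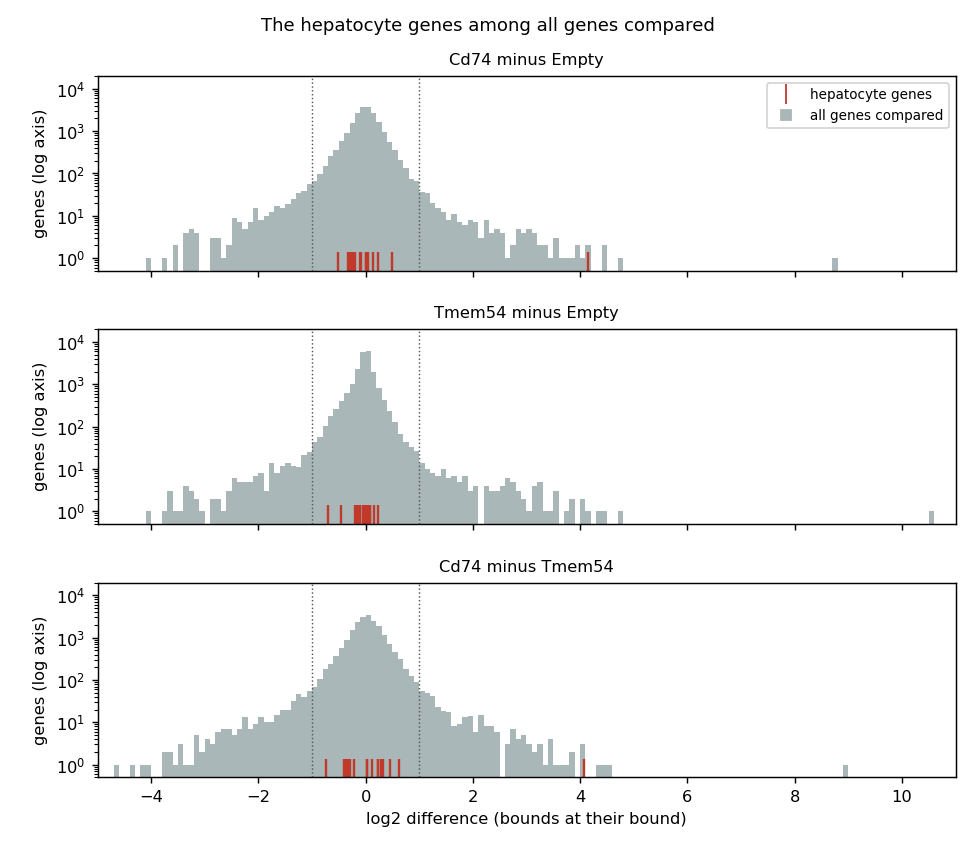
Number of genes (vertical log axis) by log2 difference (horizontal axis) for all genes compared, in grey, with the detected hepatocyte genes as red ticks and 2-fold as dotted lines. All ticks lie between the dotted lines except that of Kynu, in the upper and lower panels.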

How the data were processed

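The deposited intensity of each spot is Agilent Feature Extraction output, version 12.0.3.1 per the submitters' processing notes, detrended across the array surface with background correction switched off, per the file headers. The series' deposited table gives a linear ratio of that intensity to 1 constant per array (559.8 for Cd74, 580.7 for Tmem54, 580.3 for Empty), uncentred, with column medians of 0.0508, 0.0503 and 0.0529. All 3 arrays share 1 slide and 1 scan.

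The value used was log2 processed signal minus the array's 75th percentile over the 59305 spots other than controls. Between 119 and 135 outlier spots per array were left out, and 0 spots were saturated. Among the probes of a gene flagged well above background on any array, the brightest was used. A flag missing on 1 array of a pair turned the difference into a bound. The dim array's value was then raised to its lowest flagged signal unless the probe itself was brighter, and the result is written "at least N-fold". Genes were counted at 2-fold or more, and a median needed 2 genes. Replicate spots of a probe had a median SD between 0.0348 and 0.0368 (log2). With 3 arrays, 1 per vector, the precision between cultures is unknown.

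The genes, functions and lists were chosen with earlier results of these data known. Genes named are those with a log2 difference of at least 0.5 or a 2-fold bound, or otherwise the 2 largest differences from Empty of a function. The other detected genes are given too. From each wider list up to 4 genes past 2-fold are named, and genes named beyond these, such as G6pc3 or Kmo, were chosen after their values were seen. Alternatives, 9 in all, used limma 3.58.1 in R 4.3.3 for normexp (offset 50) and quantile normalization, and Python 3.11.15 otherwise.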

Additional observations from a re-analysis of the deposited data

How the results depend on the processing

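With 1 array per vector no replicate could be left out. No paired analysis was possible because each vector has 1 array and the result comes from no test. The slide was not used as a block because all 3 arrays share it. Under the 9 alternatives, 386 of 399 single-gene values moved by less than the model error, and 13 moved by that much or more. Many of these values could hardly move, since several settings keep the same probes and signals or shift a whole array by 1 constant. The total is therefore no measure of robustness. Next-brightest probes moved 5 values and left 7, normexp moved 7 and left 41, and the mean of all detected probes moved 1 and left 48. Small differences changed sign in some settings, among them Asl for Cd74 against Empty, at 0.01 and down to -0.44, Apoe for Tmem54 against Empty, at -0.04 and up to 0.11, and Apom for Cd74 against Empty, at -0.08 and up to 0.04. Of 153 counts and medians, 145 stayed within 1.5 times the count or within the median model error of the genes, a total limited in the same way. The apolipoprotein median for Cd74 against Empty, within that limit, was 0.04 under normexp, against -0.08. The count of genes past 2-fold dropped to 0 for Cd74 against Empty and for Cd74 against Tmem54 when only probes well above background on all 3 arrays were kept, and again to 0 in both with next-brightest probes, since each of these settings leaves out Kynu by construction. Next-brightest probes, which leave 2 apolipoproteins and 4 genes in all, gave apolipoprotein medians of 0.20 for Cd74 against Empty, 0.24 for Tmem54 against Empty and -0.05 for Cd74 against Tmem54, and a median of -0.34 over all genes of the set for Cd74 against Tmem54. Normexp correction gave a Kynu bound of 2.17 from Empty and 2.18 from Tmem54 on the log2 scale, against 4.15 and 4.07, so the size of that bound depends on the setting. It also gave -0.29 for Fetub from Empty with Cd74 and -0.15 for Apom with Tmem54. The Rbp4 difference of Cd74 from Empty stayed between 0.46 and 0.50 in the 8 alternatives that give it. Among all genes, normexp left 77 higher and 78 lower for Cd74 against Empty, where 230 and 303 were counted, 51 and 49 for Tmem54 against Empty, where 136 and 182 were, and 115 and 121 for Cd74 against Tmem54, where 337 and 352 were. Requiring all 3 arrays left 82 and 154, 32 and 65, and 180 and 208. Next-brightest probes left 52 and 56, 31 and 39, and 65 and 71, among fewer genes. Differences of genes with signals near 20, such as Apom, Hal and G6pc, are limited by signal over background.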
